A study of Homo sapiens with 5 samples.

Results

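The matrix metalloproteinases and their tissue inhibitors were examined in 3 human renal cell carcinoma lines on 5 expression arrays. The members were MMP1, MMP2, MMP3, MMP7, MMP9, MMP14, TIMP1, TIMP2 and TIMP3, taken by gene name. A platform annotation assigned 19 of the 54613 non-control probe sets to these 9 genes, out of 19775 genes named by probe sets with 1 gene. SN12C is the parental line, labelled non-metastatic, and had 2 arrays. LM1 is the line of lung-metastatic generation 1 and had 1 array. LM2 is the line of lung-metastatic generation 2 and had 2 arrays. All 3 were cultured lines and no treatment is given in the labels, which also do not say whether a line is a single clone. The SN12C and LM2 arrays are labelled biological replicates without a further statement on separate cultures, and the p-values thus cover only array-to-array spread, which may be technical. The series was designed to find expression differences that go with growing metastatic activity.

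Matrix metalloproteinases are zinc-dependent enzymes that cut collagens and other proteins of the extracellular matrix, and that are made as inactive precursors whose propeptide blocks the zinc. TIMPs are small proteins that bind the active site and inhibit the enzyme. MMP14 is anchored in the cell membrane, where it activates the MMP2 precursor held there through TIMP2, and tumours are known to use this system when they invade tissue.

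To show the regulatory sequence behind members with high and with low signal, the RefSeq promoter windows of TIMP1, MMP14 and MMP7 are given below, each from 250 bases before the annotated start to 50 bases after it (GRCh38.p14). The windows were available for 4 of the 9 members, TIMP3 being the other. Capitals mark the AP-1 element TGAGTCA, its variant TGAGTAA, the TATA box TATAAA and the GC box GGGCGG, each searched on both strands.
TIMP1, chrX:47582186-47582485, plus strand: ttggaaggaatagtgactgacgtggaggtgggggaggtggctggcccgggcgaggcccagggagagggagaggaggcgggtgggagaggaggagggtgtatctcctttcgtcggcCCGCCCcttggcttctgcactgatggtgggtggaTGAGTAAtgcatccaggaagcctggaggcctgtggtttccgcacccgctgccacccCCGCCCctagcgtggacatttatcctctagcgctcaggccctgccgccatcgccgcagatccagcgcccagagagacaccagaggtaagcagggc
MMP14, chr14:22836335-22836634, plus strand: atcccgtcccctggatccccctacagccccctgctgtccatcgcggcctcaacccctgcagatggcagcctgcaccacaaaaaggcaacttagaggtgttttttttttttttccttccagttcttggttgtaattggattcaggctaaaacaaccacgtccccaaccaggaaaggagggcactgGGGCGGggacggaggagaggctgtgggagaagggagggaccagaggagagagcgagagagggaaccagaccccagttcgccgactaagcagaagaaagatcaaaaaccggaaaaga
MMP7, chr11:102530698-102530997, minus strand: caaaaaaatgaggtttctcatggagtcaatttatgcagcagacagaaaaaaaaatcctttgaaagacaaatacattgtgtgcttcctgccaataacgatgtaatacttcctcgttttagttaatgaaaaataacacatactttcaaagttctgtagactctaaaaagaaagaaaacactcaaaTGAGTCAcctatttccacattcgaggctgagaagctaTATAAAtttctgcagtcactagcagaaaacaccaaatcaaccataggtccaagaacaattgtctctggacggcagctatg

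The MMP7 window held the AP-1 element at position -67 and a TATA box at -30 from the start. The TIMP1 window held the variant element at -101 and GC boxes on the opposite strand at -135 and -45, and the MMP14 window held 1 GC box, at -66. The TIMP3 window, not printed, held 5 GC boxes. No marked motifs overlapped in the 3 windows shown. Over all 35116 RefSeq promoter windows of the same length, 4.95% held TGAGTCA, 2.57% TGAGTAA, 11.5% TATAAA and 45.0% GGGCGG. These matches are descriptions of letters in a window, not of bound sites.

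TIMP1, TIMP2 and the membrane-bound protease MMP14 gave clear signal in all 3 lines, whereas the interstitial collagenase, stromelysin and matrilysin genes did not. TIMP3 was weaker, at 7.68 to 7.93 with its brightest probe set. A value was called at background where it lay below 6.03 log2 units, the 40th percentile of all non-control values. By this level, 12 of the 19 probe sets were above background on all 5 arrays and 6 were below it on all 5. The remaining probe set, 1566678_at of MMP2, was below on 1 array. Of all 54613 non-control probe sets, 35.5% were below background on all 5 arrays. Of the 9 genes, 6 had at least 1 probe set above background, namely MMP2, MMP9, MMP14, TIMP1, TIMP2 and TIMP3. MMP1, MMP3 and MMP7 had none. With the 30th percentile as background 4 probe sets were below it on all arrays, and with the 50th percentile 7.

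**Figure D1:**
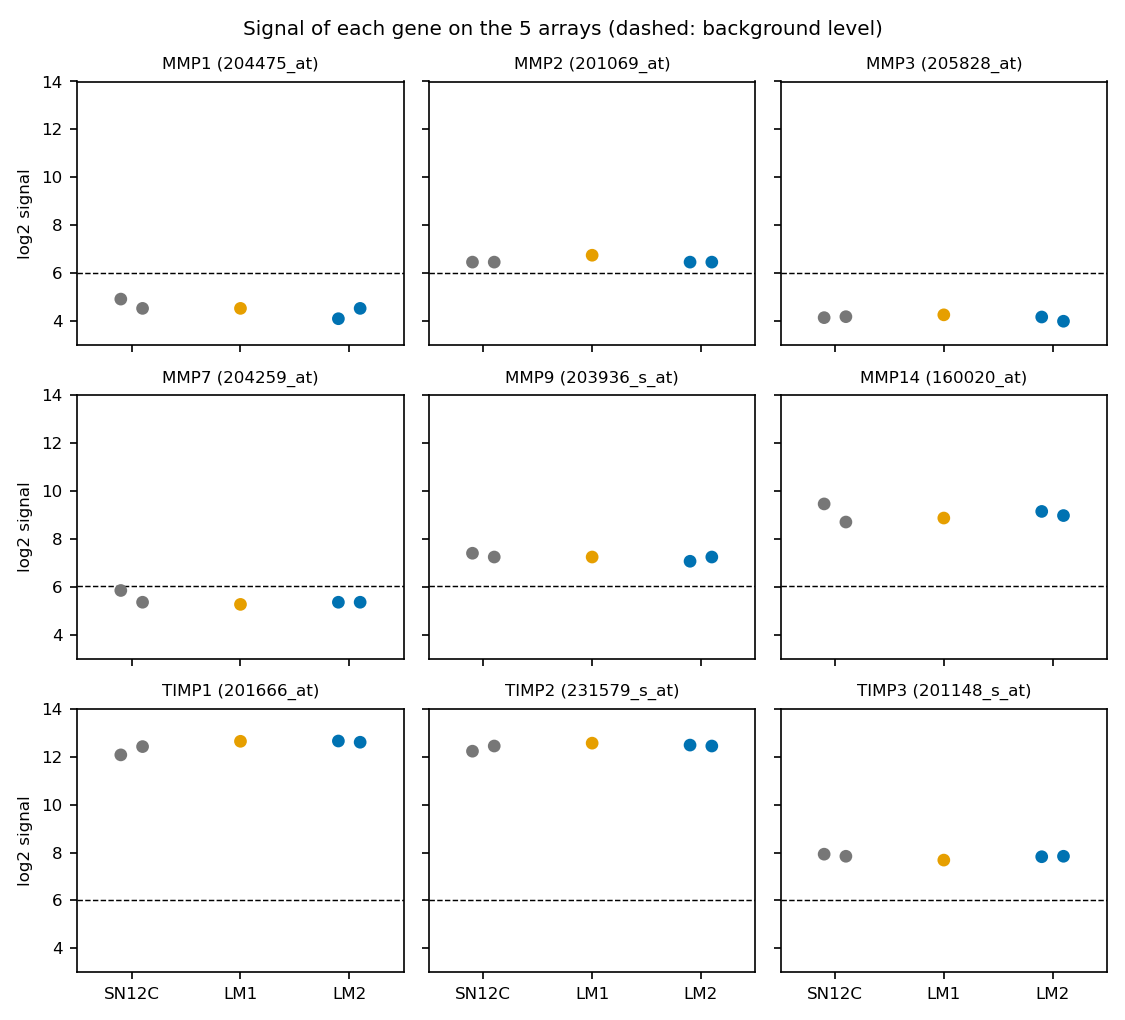
Deposited log2 signal (vertical axis) of each gene's brightest probe set on the 5 arrays, with 1 point per array grouped by line on the horizontal axis and the background level of 6.03 dashed. MMP1, MMP3 and MMP7 lie below the dashed line in every line, and the TIMP1 and TIMP2 points lie between 12.07 and 12.65.

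MMP1 encodes interstitial collagenase, which cuts fibrillar collagens. Its only probe set read 4.11 and 4.54 in LM2, against 4.93 and 4.54 in SN12C, and 4.54 in LM1. MMP3, which encodes stromelysin 1, read 4.18 and 4.003 in LM2, against 4.15 and 4.19 in SN12C, and 4.27 in LM1. For both genes the LM2 and SN12C arrays overlapped or shared a value. MMP7, which encodes matrilysin, read 5.36 on both LM2 arrays, against 5.85 and 5.36 in SN12C, and 5.27 in LM1. SN12C replicate 1 gave the highest value of MMP1 and of MMP7. All of these values lie under the background level, so they carry no order and no test was made.

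The genes of MMP1, MMP3 and MMP7 stand in a run of 9 neighbouring MMP genes on chromosome 11. By the order of protein-coding genes in RefSeq, the run is MMP7, MMP20, MMP27, MMP8, MMP10, MMP1, MMP3, MMP12 and MMP13. The brightest probe sets of all 9 stayed below background on all 5 arrays, with values between 4.003 and 5.85. The same held for 21.4% of all 19775 genes. The members with signal lie elsewhere: MMP2 on chromosome 16, MMP9 on 20, MMP14 on 14, TIMP1 on X, TIMP2 on 17 and TIMP3 on 22. TIMP1 lies within the annotated span of the synapsin gene SYN1 and TIMP3 within that of SYN3, as TIMP4 lies within SYN2.

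**Figure D2:**
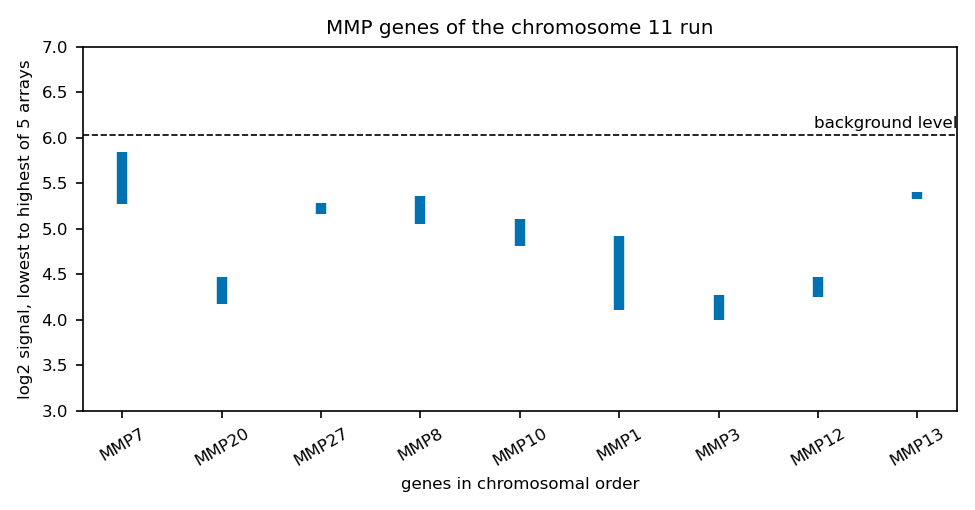
Range of log2 signal over the 5 arrays (vertical bars, lowest to highest) for the brightest probe set of each gene in the chromosome 11 run, in chromosomal order. All 9 bars end below the background level of 6.03, and the highest, MMP7, reaches 5.85.

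TIMP1, a secreted inhibitor that also binds the MMP9 precursor, was the member for which LM2 and SN12C arrays were apart. Its only probe set read 12.65 and 12.60 in LM2, against 12.07 and 12.42 in SN12C. The LM1 array read 12.64, within 0.04 of both LM2 arrays. Both LM2 arrays and the LM1 array were therefore above both SN12C arrays. LM2 averaged 12.62 ± 0.04 and SN12C 12.24 ± 0.25 (SD, n = 2 each), a difference of 0.38 ± 0.15 (SE) log2 units or 1.30-fold. This missed the threshold in limma (adjusted p = 0.601, 95% interval from -0.09 to 0.85). The difference was 0.55 against SN12C replicate 1 and 0.21 against replicate 2. After quantile normalization again the difference between LM2 and SN12C was 0.27. LM1 differed from SN12C by 0.39 ± 0.19 (SE, limma adjusted p = 0.338).

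TIMP2, which inhibits MMPs and also links the MMP2 precursor to MMP14, was read by 3 probe sets. The brightest, 231579_s_at, read 12.48 and 12.44 in LM2, against 12.23 and 12.44 in SN12C, and 12.56 in LM1. Its LM2 and SN12C arrays shared a value, and the difference was 0.13 ± 0.11 (SE) log2 units. Probe set 224560_at read 12.00 and 11.87 in LM2, against 11.67 and 11.90 in SN12C, and probe set 203167_at read 10.09 and 9.96 in LM2, against 9.63 and 10.14 in SN12C. These gave 0.15 ± 0.13 and 0.14 ± 0.22 (SE), so the 3 estimates lay within 0.13 to 0.15. Without SN12C replicate 1 they were 0.019 for 231579_s_at, 0.038 for 224560_at and -0.11 for 203167_at, and without replicate 2 they were 0.24, 0.27 and 0.40. After quantile normalization again they were 0.023, 0.033 and -0.028. For all 3 the arrays overlapped and the limma adjusted p ranged from 0.679 to 0.778. The 95% intervals ran from -0.21 to 0.46, from -0.23 to 0.54 and from -0.53 to 0.81.

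TIMP3, the inhibitor that binds to the extracellular matrix itself, was read by 4 probe sets, of which 2 passed the filter. The brightest, 201148_s_at, read 7.82 and 7.84 in LM2, against 7.93 and 7.84 in SN12C, and 7.68 in LM1. Its difference of -0.05 ± 0.08 (SE) was smaller than the gap of 0.09 between the SN12C arrays. Probe set 201149_s_at read 6.39 on both LM2 arrays, against 6.77 and 6.35 in SN12C, and 6.60 in LM1. Its difference was -0.17 ± 0.18 (SE, limma adjusted p = 0.700). The other probe sets were under background: 201147_s_at ranged from 5.10 to 5.22 and 201150_s_at from 4.77 to 5.49 over the 5 arrays.

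MMP14, the membrane-type protease, was above background with all 4 of its probe sets, and these did not move alike. Probe set 160020_at read 9.15 and 8.98 in LM2, between the SN12C values of 9.46 and 8.71, and the LM1 array read 8.87. Its difference between LM2 and SN12C was -0.02 ± 0.31 (SE). Probe set 202827_s_at read 9.08 and 8.48 in LM2, against 8.48 and 8.20 in SN12C, and 7.68 in LM1. LM2 replicate 1 was the highest array here and LM1 the lowest. Its difference between LM2 and SN12C, 0.44 ± 0.27 (SE) log2 units or 1.36-fold, was the largest among the 13 tested probe sets, and it missed the threshold (limma adjusted p = 0.679, 95% interval from -0.39 to 1.27). Without LM2 replicate 1 it was 0.14, below the 0.35 of TIMP1, and without replicate 2 it was 0.74, so its rank depended on LM2 replicate 1. Probe sets 202828_s_at and 217279_x_at gave 0.26 ± 0.16 and 0.13 ± 0.23 (SE). Over left-out replicates 160020_at ranged from -0.40 to 0.36. For all 4 probe sets the LM2 and SN12C arrays overlapped or shared a value. Of the 4, 3 have names ending in _s_at or _x_at, a type that can bind more than 1 transcript.

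MMP2 and MMP9, the gelatinases that cut denatured collagen and basement membrane collagen, stood little above background. The brightest MMP2 probe set, 201069_at, read 6.47 on both LM2 arrays and on both SN12C arrays, and 6.75 in LM1. Its difference between LM2 and SN12C was 0 with a 95% interval from -0.21 to 0.21, in which all of the spread comes from the limma prior because the replicates were identical. Probe set 1566678_at of MMP2 read 6.18 and 6.03 in LM2, against 6.30 and 6.02 in SN12C, and 6.10 in LM1, around the background level. Probe set 1566677_at read 4.70 on all LM2 and SN12C arrays and 4.73 in LM1. The MMP9 probe set read 7.07 and 7.25 in LM2, against 7.40 and 7.25 in SN12C, and 7.25 in LM1. LM2 and SN12C shared a value, and the difference was -0.17 ± 0.11 (SE, limma adjusted p = 0.679).

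Equal values on several arrays were common. Of the 19 member probe sets, 12 carried the same deposited value on at least 2 of the 5 arrays, against 53.3% of all non-control probe sets. For 9 of the 19 member probe sets, SN12C replicate 2 and LM2 replicate 2 were identical, a tie not counted over all probe sets. No source used here says how such ties came about, and only ties within a line lower the estimated spread. Both LM2 values were identical for 5 of the 19 member probe sets and both SN12C values for 2. Over all, such ties were counted only among the 33376 tested probe sets, with 4959 for LM2 and 1814 for SN12C. The 19 also include probe sets that were not tested.

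Set side by side, LM2 and SN12C showed no difference in this protease system that these arrays could resolve. Of the 13 member probe sets tested, 7 were higher in LM2, 5 were lower and 1 was equal, against 55.9% higher and 43.8% lower of all. Their differences ranged from -0.17 to 0.44 log2 units with a median of 0.13, beside a median of 0.03 over all 33376 probe sets tested. In limma 0 of 13 passed an adjusted p of 0.05 (lowest 0.601), where the share over all probe sets was also 0% (lowest adjusted p = 0.328). At an unadjusted p under 0.05 there were 0 of 13, against 9.52% of all. A difference of at least 0.5 log2 units was seen for 0 of 13, against 15.1% of all, and of at least 1 log2 unit for 0 of 13, against 3.05%. The arrays of LM2 and SN12C did not overlap for 1 of 13, TIMP1, against 36.7% of all. Members below background were left out of these counts. For 10 of the 13 probe sets the gap between the SN12C replicates was at least as large as the difference between the lines. Among these 10, both were 0 for 201069_at of MMP2. The median gap was 0.28 for the SN12C pair and 0.14 for the LM2 pair, beside 0.28 and 0.07 over all probe sets tested. The 95% intervals, which are not corrected for the number of probe sets, lay within 1 log2 unit on either side of 0 for 12 of 13, 202827_s_at of MMP14 being the exception. Neither the count of 10 nor that of 12 was made over all probe sets. With 2 arrays a line, the smallest two-sided p of an exact permutation test is 0.333. Without SN12C replicate 2 the LM2 pair is the sole source of spread. It then called 24.3% of all probe sets, and 1 member, 201149_s_at of TIMP3 at -0.38 (limma adjusted p = 0.0321), whose LM2 values are identical. Without SN12C replicate 1, without either LM2 replicate and with only the LM2 and SN12C arrays, 0 members passed in this comparison.

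**Figure D3:**
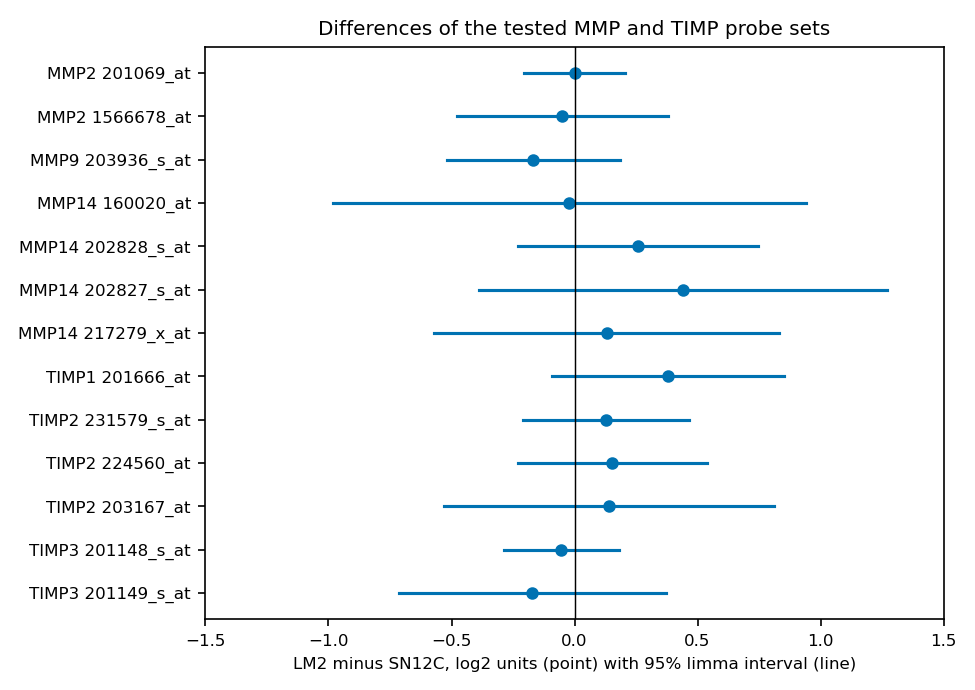
Difference between LM2 and SN12C in log2 units (points, positive is higher in LM2) with 95% limma intervals (lines) for the 13 tested MMP and TIMP probe sets. All intervals include 0, and the points lie between -0.17 and 0.44.

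LM1 was set against SN12C to see what differed already in generation 1, and LM2 against LM1 to see what differed between the generations. LM1 has 1 array, which is assumed to vary like the other lines, and its RNA controls stood apart. Control probe sets for the 3' end of beta-actin read 3.43 log2 units above those for its 5' end in LM1, against 0.07 to 0.47 elsewhere. For GAPDH this excess was 2.09 in LM1, against -0.07 to 0.14 elsewhere. Probe sets of 1 gene disagreed on this array. For TIMP2, 224560_at read 11.29 in LM1, below both SN12C arrays, with a difference of -0.49 ± 0.15 (SE) log2 units. The other TIMP2 probe sets were 0.23 ± 0.13 for 231579_s_at and 0.39 ± 0.27 for 203167_at, with LM1 above both SN12C arrays in each. For MMP14, 202827_s_at and 217279_x_at stood at -0.66 ± 0.33 and -0.53 ± 0.28 in LM1, below both SN12C arrays, while 202828_s_at stood at 0.17 ± 0.19, above both. No direction for TIMP2 or MMP14 in LM1 therefore held over their probe sets. The part of the 3' to 5' imbalance in this was not tested.

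**Figure D4:**
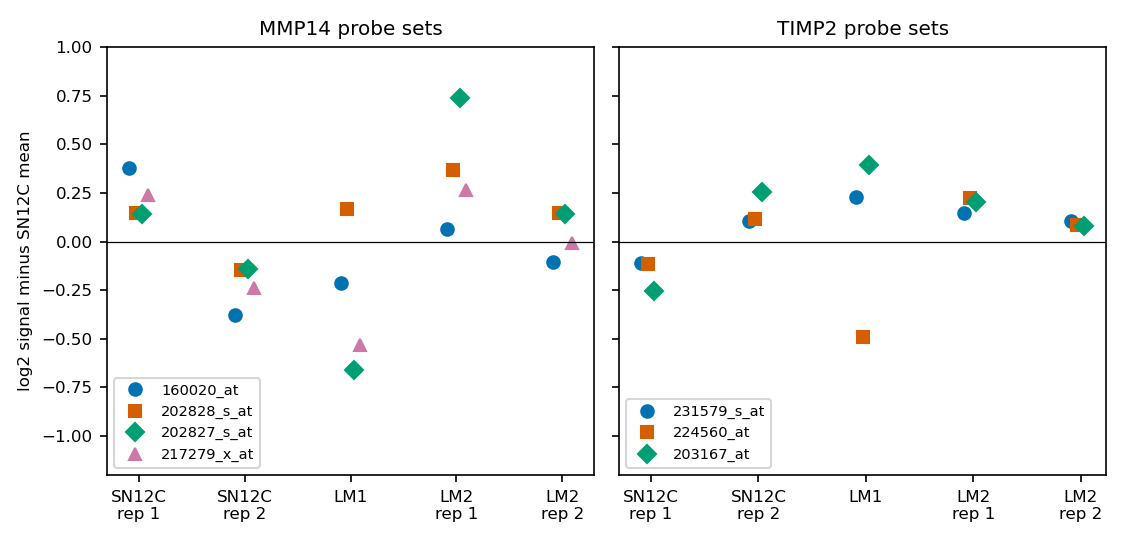
Log2 signal of each MMP14 and TIMP2 probe set on the 5 arrays after subtracting that probe set's SN12C mean (vertical axis), with arrays on the horizontal axis and 1 marker type per probe set. On the LM1 array the probe sets of each gene spread from -0.66 to 0.17 for MMP14 and from -0.49 to 0.39 for TIMP2.

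In limma 0 of the 13 tested probe sets passed for LM1 against SN12C (lowest adjusted p = 0.183) or for LM2 against LM1 (lowest adjusted p = 0.171), where the share of all probe sets was 0% in both. At an unadjusted p under 0.05 there were 2 of 13 for LM1 against SN12C, against 23.2% of all. They were 201069_at of MMP2 at 0.29 ± 0.08 (SE) and 224560_at of TIMP2. For LM2 against LM1 there were 3 of 13, against 20.9% of all, namely the same pair at -0.29 ± 0.08 and 0.64 ± 0.15 and 202827_s_at of MMP14. The replicates of 201069_at were identical in SN12C and in LM2, so its SE comes wholly from the limma prior. The other tested MMP2 probe set, 1566678_at, stood at -0.06 ± 0.17 (SE) for LM1 against SN12C. A difference of at least 1 log2 unit was found for 0 of 13 in LM1 against SN12C, where 11.8% of all had one. In LM2 against LM1 it was found for 1 of 13, 202827_s_at of MMP14 at 1.10 ± 0.33 (SE, limma adjusted p = 0.219), where 9.35% of all had one. TIMP1 differed between LM2 and LM1 by -0.01 ± 0.19 (SE). The 3 comparisons share arrays and are not independent. When an SN12C array was left out, so that the LM2 pair alone gave the spread, some members passed. For LM1 against SN12C, 201069_at of MMP2 and 201149_s_at of TIMP3 passed without replicate 1, where 19.1% of all did. Without replicate 2 these and 201666_at of TIMP1 and 201148_s_at of TIMP3 passed, where 31.1% of all did. The TIMP3 probe set 201149_s_at had opposite signs in these fits, at 0.25 and -0.16. Both LM2 values are identical for 201069_at and for 201149_s_at, so their spread in these fits came wholly from the limma prior. For LM2 against LM1, the fits without an SN12C array and that of LM2 and LM1 alone are the same test. Their equal outcome is therefore not separate support. For LM2 against LM1, 201069_at and 201149_s_at passed in either fit and with the arrays of LM2 and LM1 alone, where 17.3% of all did.

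Other genes of the system were counted through the brightest probe set of each. Over all 15024 genes tested in this way, 1.7% were at least 1 log2 unit higher in LM2 than in SN12C without overlap, 1.23% were lower, and 11.3% had an unadjusted p under 0.05. Among the other MMPs and TIMP4, 17 of 18 genes were named on the array and 9 were tested. MMP24, a membrane-type MMP, was the tested gene there with a difference of at least 1 log2 unit and no overlap. It read 9.19 and 9.12 in LM2, against 8.21 and 7.97 in SN12C, and 9.51 in LM1. The difference of 1.07 ± 0.12 (SE) log2 units between LM2 and SN12C missed the threshold (limma adjusted p = 0.328). Its second probe set gave 0.69 ± 0.11 for LM2 but read 6.13 in LM1, below both SN12C values of 7.25 and 7.03. Of the 9 tested genes, 0 passed limma and 1 had an unadjusted p under 0.05. Their median was 0.03, equal to the 0.03 over 15024 genes.

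Among 12 tested activators, receptors and other inhibitors of MMPs, 0 passed limma, 1 was higher in LM2 by at least 1 log2 unit without overlap and 1 was lower, with a median of -0.05. The shares over all 15024 genes were 1.7% higher and 1.23% lower. An unadjusted p under 0.05 was found for 2 of 12, against 11.3% of all 15024 genes. These 2 were PLAT and PLAU, with opposite directions. PLAU read 11.76 and 11.55 in LM2, against 12.31 and 12.52 in SN12C, a difference of -0.76 ± 0.14 (SE). PLAU is named for its unadjusted p, although its difference fell short of 1 log2 unit. PLAT, the tissue plasminogen activator, read 12.57 and 12.53 in LM2, against 11.68 and 10.72 in SN12C, a difference of 1.35 ± 0.39 (SE). TFPI2, a matrix-bound inhibitor of plasmin, read 6.16 and 6.91 in LM2, against 7.05 and 9.15 in SN12C. Its difference was -1.56 ± 0.88 (SE), with a gap of 2.10 between the SN12C arrays. Its second probe set was below background on 4 of the 5 arrays. BSG, which encodes the MMP inducer basigin, read 11.63 and 11.40 in LM2, against 11.35 and 11.24 in SN12C, and 9.66 in LM1. BSG is named for that LM1 value, which was chosen after its values were seen. The value rests on 1 probe set and on the array whose RNA controls stood apart. BSG differed between LM1 and SN12C by -1.63 ± 0.15 (SE) log2 units and missed the threshold in limma. A difference of at least 1 log2 unit was found there for 11.8% of all probe sets. The part of the 3' to 5' imbalance in this value was not tested.

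Of 14 tested ADAM and ADAMTS proteases, relatives of the MMPs, some of which TIMP3 also inhibits, 0 passed limma, with a median of -0.03. Of the 14, 0 differed by 1 log2 unit without overlap. An unadjusted p under 0.05 was found for 0 of 14, against 11.3% of all 15024 genes. Of 16 tested AP-1, ETS and related transcription factors known from MMP promoters, 0 passed limma, with a median of -0.08. Lower in LM2 by at least 1 log2 unit without overlap were 2 of 16, against 1.23% of all 15024 genes. An unadjusted p under 0.05 was found for 6 of 16, against 11.3% of all 15024 genes. Of these 4 were lower in LM2 and 2 were higher. ETS1 read 10.35 and 10.29 in LM2, against 11.96 and 11.06 in SN12C, a difference of -1.19 ± 0.36 (SE). Its other probe sets gave -0.42 and -0.28. CEBPB, which encodes a stress-responsive factor, read 11.52 and 11.60 in LM2, against 13.29 and 12.65 in SN12C, a difference of -1.41 ± 0.26 (SE). For LM2 against SN12C, the limma adjusted p of these named genes, BSG and PLAU included, lay between 0.328 and 0.679.

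Among members' brightest probe sets that were tested, TIMP1 and MMP9 had the largest differences between LM2 and SN12C. The genes whose profile over the 5 arrays was closest to that of TIMP1, by root mean square distance between centred profiles, were DLK2 at 0.018, MTCH1 at 0.029 and SRP54 at 0.031 log2 units. For MMP9 they were WNT10B at 0.015, HMGA2 at 0.017 and TMEM140 at 0.017. Of 15023 genes compared, 544 lay within 0.1 of TIMP1 and 1425 within 0.1 of MMP9, so closeness over 5 arrays picks out few patterns.

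The arrays' medians lay between 6.51 and 6.57 log2 units. Probe set values spread with an SD of 2.22 to 2.25 on 4 arrays and of 2.11 on SN12C replicate 1. Of the renal markers, PAX8 read 9.19 to 9.82 over the 5 arrays, PAX2 read 6.34 to 6.46 and CDH16 was above background on 1 array. The keratins KRT8 and KRT18 read 12.46 to 14.72, while EPCAM and CDH1 were below background on all arrays. KRT19, another keratin, read 11.76 and 11.74 in LM2, against 8.92 and 9.54 in SN12C, and 12.01 in LM1. Its difference of 2.52 ± 0.25 (SE) log2 units between LM2 and SN12C missed the threshold (limma adjusted p = 0.328). Of 5 leukocyte markers 2 were tested, of 5 endothelial markers 4, of 6 fibroblast markers 5 and of 4 lung epithelial markers 3. PTPRC, LYZ, CDH5, LUM and SCGB1A1 were below background on all 5 arrays. Above background on all 5 arrays were 2 of the leukocyte, 3 of the endothelial, 5 of the fibroblast and 3 of the lung epithelial markers. Among these, CD3E read 6.36 to 7.05, PECAM1 7.07 to 7.65, COL1A1 9.01 to 9.04 and SFTPB 7.71 to 9.04. The linear signals of the fibroblast markers were summed and given as log2. This sum was 11.91 to 12.13 in LM2, 11.24 in LM1 and 10.85 to 11.52 in SN12C. The brightest of them, THY1, differed by 1.31 between LM2 and SN12C. Of the 5 tested fibroblast markers, 3 were higher in LM2 and 2 were lower. The log2 of the summed endothelial markers was 8.71 to 8.75 in LM2, 8.78 in LM1 and 8.89 to 9.23 in SN12C. There KDR read 5.53 and 5.51 in LM2, below background, against 7.10 and 6.79 in SN12C. Of the 4 tested endothelial markers, 3 were lower in LM2 and 1 was higher. The higher one, VWF, read 6.61 and 6.70 in LM2, against 6.22 and 6.34 in SN12C. The part of these markers in the values above was not tested.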

How the data were processed

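RNA of SN12C, LM1 and LM2 cells was hybridised to 5 Affymetrix arrays. The deposited values are log2 signals, 1 for each probe set on each array, made with RMA and Partek per the submitters' processing notes, without versions. RMA includes background correction, quantile normalization and a summary over probes, and is meant to bring the arrays to a common distribution.

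Of 54675 probe sets, 62 controls were left out. The platform table listed 42898, 41097 with 1 gene and 1801 with several, and none with several was used. List genes it did not name were not used here. Probe sets with at least 2 arrays at or above the 40th percentile, 6.03, were tested (33376). The limma 3.58.1 model (lmFit and eBayes, R 4.3.3) had 1 mean per line over 5 arrays, 2 residual and 1.2 prior degrees of freedom, and Benjamini-Hochberg adjustment at 0.05 over all tested probe sets. SEs and intervals are moderated. The number of arrays limits the precision. RefSeq (GRCh38.p14) gave gene order and promoters. Figures used matplotlib 3.10.9. The limma script was tested on simulated data.

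The members and lists were chosen with earlier results of these data known. All members were named. List genes, by their brightest probe set, were named at a difference of at least 1 log2 unit with lines that do not overlap, and for the 2 members whose brightest tested probe sets differed most between LM2 and SN12C, the 3 closest genes were named. BSG and PLAU were named outside the 1 log2 rule. Alternatives covered filter, probe sets, scaling, eBayes, arrays, ties and replicates.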

Additional observations from a re-analysis of the deposited data

How the results depend on the processing

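The precision is limited by 5 arrays, by 1 array of LM1 and by a larger gap in the SN12C pair (median 0.28 log2 units) than in the LM2 pair (0.07). The main count of calls was 0 in each comparison. Leaving out 1 replicate at a time gave 0 to 8105 probe sets for LM2 against SN12C, 0 to 10386 for LM1 against SN12C and 0 to 5776 for LM2 against LM1, and 0 to 7 member calls over the 3 comparisons. The high counts came from fits without an SN12C array, whose spread is that of the LM2 pair. With only the arrays of LM2 and LM1 there were 5776 calls, 2 of them members. Quantile normalization again gave 1172 for LM1 against SN12C and 325 for LM2 against LM1, and leaving out probe sets with tied replicates 282 and 13, with 0 members in each. The cause of these last counts was not tested. With the replicate block, SN12C and LM2 arrays only, 0 probe sets and 0 members passed. The correlation of replicate gaps between the lines was 0.07, and nothing in the labels pairs the numbers.

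Of 39 member differences, 11 took the opposite sign under some alternative. For LM2 against SN12C the ranges over left-out replicates were -0.19 to 0.087 for 1566678_at of MMP2, -0.40 to 0.36 for 160020_at and -0.11 to 0.37 for 217279_x_at of MMP14, -0.11 to 0.40 for 203167_at of TIMP2 and -0.38 to 0.036 for 201149_s_at of TIMP3. For LM1 against SN12C they were -0.20 to 0.076 for 1566678_at, -0.59 to 0.17 for 160020_at and -0.16 to 0.25 for 201149_s_at. For LM2 against LM1 they were -0.065 to 0.085 for 1566678_at, -0.022 to 0.20 for 202828_s_at and -0.039 to 0.012 for 201666_at of TIMP1. Quantile normalization again moved 160020_at from -0.02 to -0.19 for LM2 against SN12C and turned 217279_x_at to -0.0088 and 203167_at to -0.028. It turned 1566678_at to -0.012 for LM2 against LM1, as centring on the median turned it to -0.023. TIMP1 stayed higher in LM2 than in SN12C under all alternatives run, but few of them could have turned its sign. Filter, probe set, eBayes, array subset, block and tie settings left its estimate at 0.38. Leaving out 1 replicate cannot reverse a difference whose arrays do not overlap. Centring on the median gave 0.39 and quantile normalization again gave 0.27.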
